A study of Drosophila melanogaster with 73 samples.

Results

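The abdominal fat body of female Drosophila melanogaster was followed through the first 12 h after a shift from 25C to 18C and set against the same hours of a settled day at 25C. The comparison took the 6 libraries of 18C day 1 at ZT02 to ZT12, where ZT counts hours from lights on and the shift fell at ZT00, and the 14 libraries of 25C days 4-5 at the same times of day, 20 of the 73 libraries in the series. Of 23932 genes in the table, 7328 had a median above 5 TPM (transcript abundance, a level scaled for transcript length and library total) in either group and were tested. All groups shared the Iso31 genotype, an isogenic w1118 strain, a diet of yeast and sucrose, and a cycle of 12 h of light and 12 h of dark. Flies were aged for 3 days with males, entrained for 3 days at 25C, and then moved to 18C or left at 25C when 7 days old. Flies of 25C days 4-5 were therefore 3 to 4 days older than those of day 1, and temperature, age and time in the experiment cannot be told apart in the main comparison. A second contrast held the day fixed, against the 25C day 1 libraries at ZT06 and ZT12, and the 18C day 1 library at ZT00 gave the level at the shift itself.

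The fat body stores lipid and glycogen, secretes yolk and plasma proteins, and carries a clock of its own. In that clock Clk and cyc form the activator of per and tim, whose proteins enter the nucleus and block it, while vri represses and Pdp1 activates Clk. Inducible heat shock genes encode chaperones that respond to heat and other protein stress, and in Drosophila they are also known to respond during recovery from strong cold. Ribosome assembly, tRNA charging and mitochondrial translation are parts of protein synthesis that nutrient and growth signals control in fat body.

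Each library came from fat tissue dissected by hand from a pool of flies, with gut, ovaries and tubules removed, so RNA of neighbouring organs could be carried over. Genes above 0 numbered 11983 to 12408 at 18C day 1 and 11611 to 12588 at 25C days 4-5, and the 20 most abundant genes held 12.89 to 14.44% and 11.88 to 14.82% of the TPM. TPM keeps no read depth per library, and the study's methods state only a single nominal read number for all, so the spread between libraries is the error given. Fat body markers were abundant, with a mean log2(TPM + 1) of 8.42 to 8.89 at 18C day 1 and 7.89 to 8.45 at 25C days 4-5, although Lsp2 and Fbp1, which serve the larval fat body, were low. Male accessory gland and sperm markers had scores of 0 to 0.05 in these 20 libraries. Transcripts of the vitelline membrane, which follicle cells of the ovary make, stood apart. Vm26Aa was at 449, 702 and 468 TPM in the 18C libraries at ZT02, ZT04 and ZT08 and at 3.75, 0.37 and 0 TPM at ZT06, ZT10 and ZT12. It was at 0 to 7.74 TPM at 25C days 4-5 and at 395 and 960 TPM in the 25C day 1 libraries at ZT06 and ZT12. Of 12 listed eggshell markers 4 (Vm26Aa, Vm26Ab, Vm34Ca and psd) were tested and called higher, but all 4 passed the filter on low values only through the 18C group, so that count is no measure of the list. None of the 3 tested germline markers was called. Germline scores were 0.81 to 2.75 at 18C day 1, 0.66 to 3.37 at 25C days 4-5 and 2.95 and 4.28 at 25C day 1, and gut scores were 0.8 to 4.95, 0.8 to 7.31, and 1.31 and 3.87. Eggshell scores over the whole list were 0.11 to 4.59 at 18C day 1, 0.02 to 4.56 at 25C days 4-5 and 5.35 and 6.44 at 25C day 1. In bulk tissue, fewer cells of a type and less RNA per cell cannot be told apart.

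At 18C day 1, 544 of the 7328 genes were higher and 1980 lower than on the settled 25C day, 34.4% of those tested (7.42% higher and 27.0% lower, limma on log2(TPM + 1) with ZT as a factor, Benjamini-Hochberg adjusted p under 0.05). Most differences were small, and 62 of the higher and 28 of the lower genes (0.846% and 0.382% of those tested) differed by at least 1 on the log2 scale. Of the tested genes 139 passed the filter on low values only through the 18C group and 332 only through the 25C group. Of the 139, 57 were called higher, beside 487 of the other 7189. The median over all tested genes was -0.11, and once each library was rescaled by its median ratio the calls divided into 1115 higher and 1291 lower, so the excess of lower calls depended on that shift. With germline, eggshell and gut scores as covariates 169 genes were higher and 726 lower. With 18C libraries at ZT06, ZT10 and ZT12 alone, where vitelline membrane transcripts were low, 387 were higher and 1218 lower. Another eggshell marker, Cp15, reached 1806.5 TPM in an 18C library, while the whole eggshell list summed to at most 1832 TPM in any 18C library. The library with high Cp15 was therefore among those at ZT06, ZT10 and ZT12, so these were not all low in eggshell RNA. Each hour had 1 library at 18C and 1 (ZT02 and ZT04), 2 (ZT08 and ZT10) or 4 (ZT06 and ZT12) at 25C. No label says that libraries of different hours came from separate cultures, so p-values measure the spread between these samples, which may be technical. Leaving out 1 library at a time gave 361 to 628 higher and 1445 to 2273 lower genes, the fewest higher without the 18C library at ZT12.

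**Figure D1:**
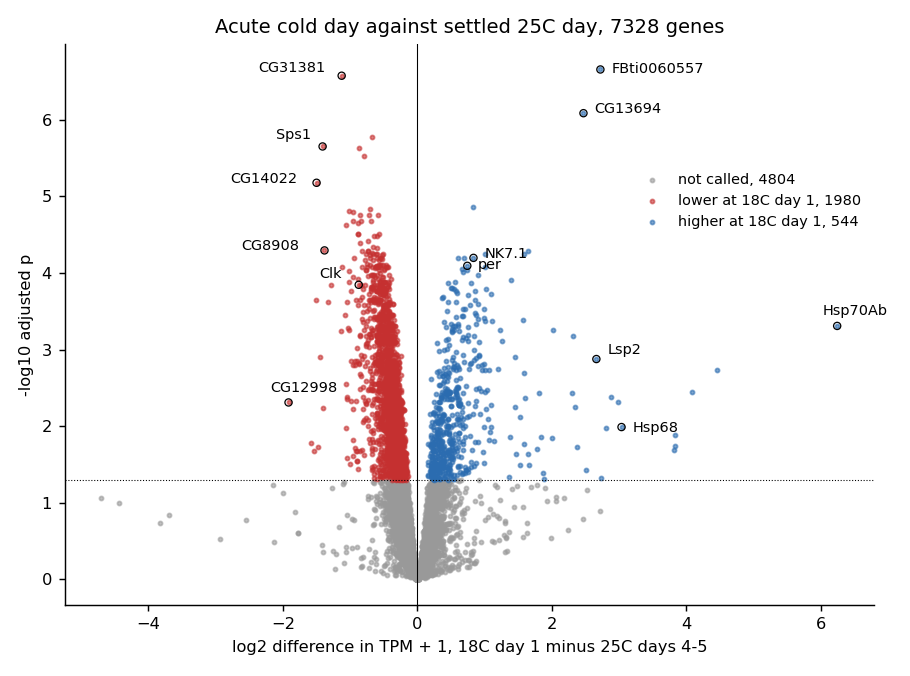
Each point is 1 of 7328 tested genes, with the log2 difference in TPM + 1 between 18C day 1 and 25C days 4-5 on the horizontal axis and -log10 of the adjusted p on the vertical axis, and the dotted line marks an adjusted p of 0.05. The 1980 lower genes (red) mostly lie within 1 of 0, and the largest difference, that of Hsp70Ab at 6.24, lies among the 544 higher genes (blue).

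Against the 25C day 1 libraries at ZT06 and ZT12, in a fit that took the spread from 22 libraries, 461 genes were higher and 786 lower at 18C day 1 (6.29% and 10.7% of those tested). Without the 25C day 1 library at ZT12 the total fell from 1247 to 37 and without that at ZT06 to 757, so the calls within day 1 rest largely on 1 library. With marker scores as covariates they numbered 50, with 36 higher and 14 lower, and the eggshell scores of both 25C day 1 libraries exceeded those of all 18C day 1 and settled 25C libraries. Every other count and call within day 1 was made without those covariates. This contrast shares its 18C libraries with the main comparison. The sign of each gene called in the main comparison was also read in the matched day 1 pairs. Of the 544 higher genes, 478 (87.9%) were also higher at 18C in both pairs, beside 71.5% of all tested genes with a main difference above 0. Of the 1980 lower genes, 1549 (78.2%) were lower in both pairs, beside 51.0% of all tested genes with a main difference below 0. Over the 544 higher genes the median was 0.47 against 25C days 4-5 and 0.55 against 25C day 1. Over the 1980 lower genes it was -0.39 and -0.36. At ZT00, set against 25C day 5, the medians were 0.07 and -0.09, beside -0.08 over all tested genes. The 18C and settled 25C libraries did not overlap for 6.20% of the tested genes, 60 higher (0.819%) and 394 lower (5.38%).

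A transposable element insertion and its neighbouring gene were among the most cleanly separated transcripts. Both passed the filter on low values only through the 18C group, where they were high, so the filter itself favoured a call of higher. FBti0060557, an annotated insertion on chromosome 2L (116518 to 116976, plus strand, Ensembl annotation of the BDGP6 assembly), was at 10.8, 13.6, 10.5, 11.7, 24.2 and 7.98 TPM from ZT02 to ZT12 of 18C day 1. It was at 0.66 to 1.84 TPM (median 1.03) in the settled 25C libraries, at 0.73 and 0.97 TPM at ZT06 and ZT12 of 25C day 1 and at 1.23 TPM at the shift. Every 18C library taken after the shift lay above every 25C library of the comparison, by 2.72 ± 0.16 (log2 difference ± SE, limma, adjusted p = 2.20e-07), and by 2.87 ± 0.28 within day 1 (adjusted p = 6.37e-05). CG13694 lies on the minus strand at 115365 to 116488, with 29 bases between the ends of the pair. It was at 10.3, 6.80, 7.42, 12.3, 17.7 and 5.58 TPM at 18C and at 0.16 to 1.72 TPM at 25C days 4-5 (2.47 ± 0.18, adjusted p = 8.17e-07), and within day 1 it was higher by 2.21 ± 0.31. At 18C days 4-5 the medians were 5.47 TPM for FBti0060557 and 4.67 TPM for CG13694, and the acute day was above them by 1.01 ± 0.20 and 0.92 ± 0.19 (adjusted p = 0.000478 and 0.000695). The libraries were not stranded, so reads at the ends of this pair could not be assigned by strand.

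Other genes rose by less, NK7.1, Hs6st and CG7668 without overlap and PGRP-LF with overlap. NK7.1, a homeobox transcription factor, was at 31.4, 23.5, 19.9, 21.0, 29.4 and 20.5 TPM at 18C, at 10.3 to 15.9 TPM at 25C days 4-5, at 8.57 and 7.41 TPM at 25C day 1 and at 15.4 TPM at the shift. Its difference was 0.83 ± 0.10 (adjusted p = 6.34e-05), and 1.42 ± 0.17 within day 1 (adjusted p = 0.000271). Hs6st, which adds 6-O-sulfate to heparan sulfate, was at 21.8 to 27.7 TPM at 18C, at 11.7 to 19.3 TPM at 25C days 4-5 and at 7.76 and 11.8 TPM at 25C day 1 (1.44 ± 0.17 within day 1). CG7668 was at 80.4 to 109 TPM at 18C and at 58.4 to 77.0 TPM at 25C days 4-5 (0.46 ± 0.06). PGRP-LF, a receptor that dampens the Imd immune pathway, was at 18.8 to 42.4 TPM against 9.81 to 22.3 TPM (0.80 ± 0.11, adjusted p = 0.000134), and 6 of the 14 settled libraries lay above the lowest 18C library. It shares 602 of its 1355 exonic bases with UGP on the opposite strand, so its reads are uncertain. The day 1 calls of FBti0060557, NK7.1, Hs6st, CG7668 and PGRP-LF were lost with only the 4 day 1 libraries at ZT06 and ZT12 (adjusted p = 0.0797 to 0.0889), where no gene was called.

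Among the lower genes Sps1, a selenophosphate synthetase-like enzyme, was at 35.3 TPM at the shift and at 20.2, 14.8, 11, 12.2, 10.2 and 12.6 TPM from ZT02 to ZT12. It was at 27.8 to 49.1 TPM at 25C days 4-5 and at 53.5 and 59.9 TPM at 25C day 1, so no 18C library taken after the shift reached a 25C library. The difference was -1.41 ± 0.11 (adjusted p = 2.22e-06), and -1.92 ± 0.19 within day 1 (adjusted p = 6.37e-05). CG14022 was at 68.0 TPM at the shift, at 17.1 to 33.8 TPM afterwards and at 51.0 to 88.9 TPM at 25C days 4-5 (-1.50 ± 0.13, adjusted p = 6.62e-06). CG31381 was at 7.35 TPM at the shift, at 1.71 to 2.68 TPM afterwards and at 5.34 to 7.15 TPM at 25C days 4-5 (-1.13 ± 0.07, adjusted p = 2.65e-07). For both the 18C library at the shift lay within or above the settled range and the later ones below it. CG17068 was at 3.57 to 4.61 TPM against 7.20 to 10.1 TPM (-0.80 ± 0.07). CG31381 and CG17068 passed the filter on low values only through the 25C group, where they were high. AIF, a mitochondrial flavoprotein, was at 11.9 to 16.4 TPM against 18.3 to 24.4 TPM (-0.60 ± 0.06), and mEFTu1, the mitochondrial elongation factor that delivers charged tRNA, at 48.5 to 78.9 TPM against 87.1 to 108 TPM (-0.59 ± 0.07). Within day 1 all 6 of these genes were lower, with differences of -1.92 (Sps1) to -0.85 (AIF), and CG14022 had the largest adjusted p among them (-0.93 ± 0.22, adjusted p = 0.0127).

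**Figure D2:**
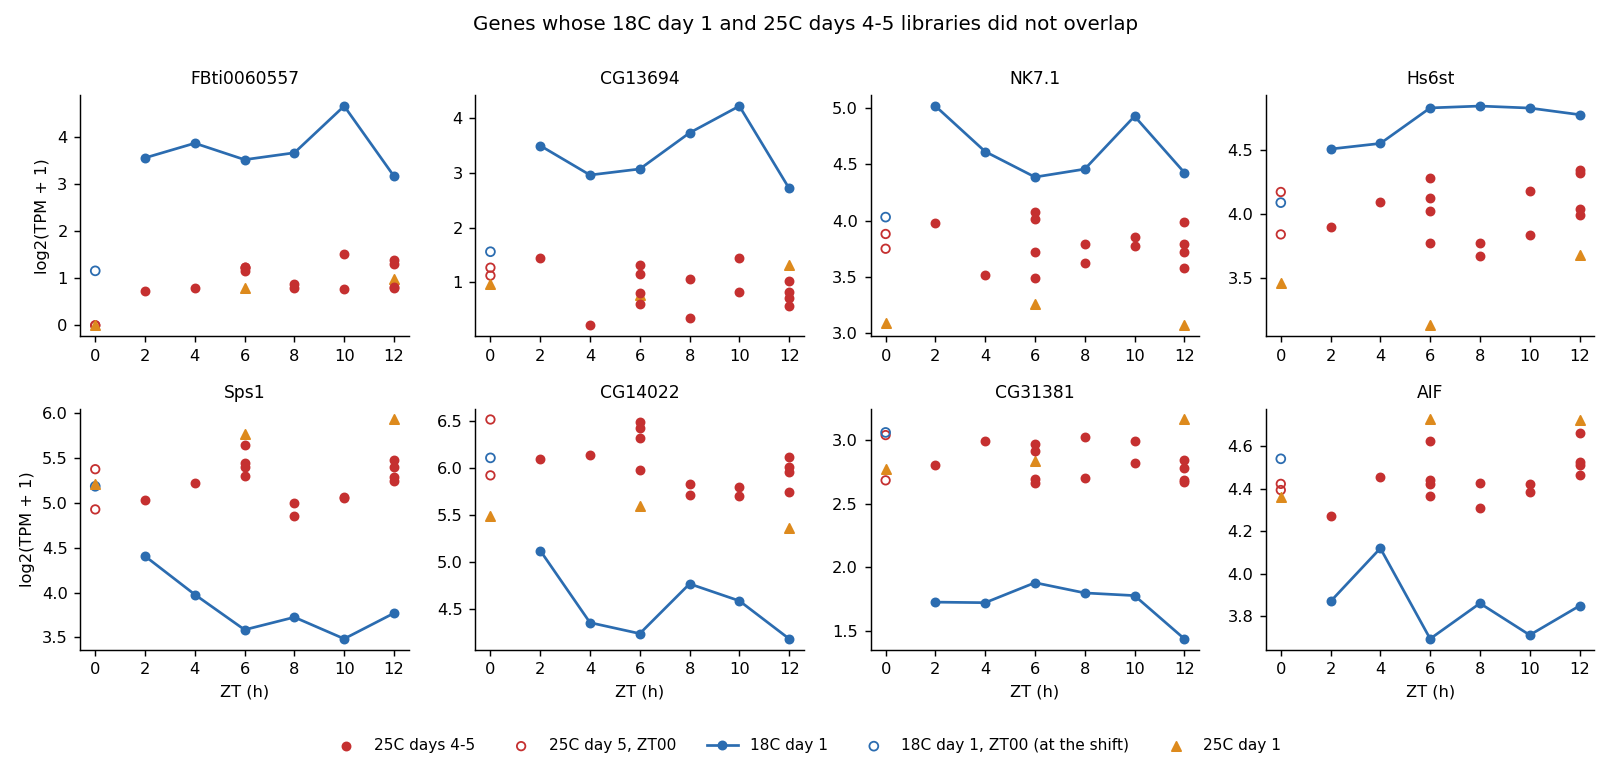
Levels of 8 genes as log2(TPM + 1) against ZT in hours, with 18C day 1 as joined blue points, 25C days 4-5 as red points, 25C day 1 as orange triangles, and the ZT00 libraries of 18C day 1 and 25C day 5 as open circles. Every blue point from ZT02 lies above the red points for FBti0060557, CG13694, NK7.1 and Hs6st and under them for Sps1, CG14022, CG31381 and AIF, while the open blue circle at ZT00 lies near the red level. Axes do not start at 0.

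Other decreases of the naming rule were of similar or larger size, most of them with overlap between the groups. MsrA, which repairs oxidised methionine, was at 84.4, 50.4, 91.9, 94.2, 65.8 and 256 TPM at 18C and at 38.5 to 693 TPM (median 298) at 25C days 4-5 (-1.59 ± 0.47, adjusted p = 0.0165). Its call was lost without the 18C library at ZT10 (adjusted p = 0.0559). CG12998 was at 19.2 to 79.4 TPM against 32.0 to 329 TPM (-1.92 ± 0.46, adjusted p = 0.00490). Neither was called within day 1, nor with marker scores as covariates (adjusted p = 0.097 and 0.0697). CG8646 was at 1.15 to 4.67 TPM against 4.58 to 11.8 TPM (-1.51 ± 0.23) and CG8908 at 0.61 to 2.53 TPM against 3.70 to 7.50 TPM (-1.38 ± 0.16), and both were lower within day 1 (-1.48 ± 0.38 and -1.47 ± 0.27). The groups overlapped for CG8646 but not for CG8908, and both genes passed the filter on low values only through the 25C group. The remaining 6 of the 12 largest decreases by the naming rule (CG7203, FBti0060277, Achl, CG9804, CG15629 and CG6845) had differences of -1.53 to -1.29, and of these CG15629 and CG6845 did not overlap. CG7203, Achl, CG9804, CG15629 and CG6845 also passed that filter only through the 25C group. FBti0060277 overlaps other insertions and CG9804 an antisense RNA, so their reads are uncertain.

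Some large increases were also irregular. Lsp2, Sgp, CG9568 and FBti0019898 passed the filter on low values only through the 18C group, where they were high. Lsp2, a larval storage protein, was at 9.07 to 53.4 TPM at 18C and 0.73 to 13.6 TPM at 25C days 4-5 (2.66 ± 0.51, adjusted p = 0.00133). It was at 31.5 to 55.2 TPM in the 25C day 1 libraries at ZT06 and ZT12 and its difference within day 1 was -0.999 ± 0.88 (adjusted p = 0.462). An antisense RNA, asRNA:CR11538, covers 2096 of its 2477 exonic bases. Sgp was at 5.33 to 49.3 TPM against 0.39 to 10.6 TPM (2.02 ± 0.35, adjusted p = 0.000556), but was at 8.77 TPM at the shift already. CG9568 reached 114 TPM at ZT02 and was at 2.17 to 16.3 TPM in the other 18C libraries, against 0 to 7.22 TPM (2.34 ± 0.57). FBti0019898, an insertion that overlaps others, was at 8.21 to 74.0 TPM against 0.68 to 13.8 TPM (2.31 ± 0.41).

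Inducible heat shock genes were among the higher genes, and Hsp70Ab had the largest difference of all 7328 genes. Of 28 listed heat shock proteins and cognates 22 were tested, with 11 called higher and 4 lower (7.42% and 27.0% of all tested genes). Of the 22, 8 passed the filter on low values only through the 18C group, among them Hsp27 and the 5 called Hsp70 copies, so the list's count is inflated by the filter. Of the other 14, 5 were higher. The higher members were 5 Hsp70 copies, Hsp68 of the same family, the small heat shock proteins Hsp26 and Hsp27, the co-chaperones DnaJ-1 and stv, and Hsf, the transcription factor that drives the inducible genes. The lower members were the mitochondrial chaperones Hsp60A and Hsc70-5, the constitutive cognate Hsc70-4 and the small heat shock protein l(2)efl, and after rescaling 1 of the 4 was called. Hsp60A was at 120, 150, 113, 137, 143 and 163 TPM at 18C, at 230 TPM at the shift, at 184 to 238 TPM at 25C days 4-5 and at 270 and 288 TPM at 25C day 1. The groups did not overlap (-0.59 ± 0.08, adjusted p = 0.000167), and within day 1 the difference of Hsp60A was -0.96 ± 0.14 (adjusted p = 0.00113).

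Copies of Hsp70 are nearly identical in sequence, so the division of reads among them is uncertain, and the TPM of 6 copies were also summed. The sum was 1099, 488, 346, 372, 2265 and 569 TPM from ZT02 to ZT12 of 18C day 1. At 25C days 4-5 it was 2.01 to 19.1 TPM in 13 libraries and 1600 TPM in the replicate 1 library at ZT06 of day 5, which alone made the groups overlap. The difference of the sum was 5.95 ± 1.06 (adjusted p = 0.000693). Hsp70Ab, the most abundant copy, was at 262 to 1417 TPM against 1.10 to 1144 TPM with a median of 4.27 (6.24 ± 1.04, adjusted p = 0.000491). Hsp68 was at 46.2 to 462 TPM against 4.49 to 463 TPM (3.04 ± 0.82, adjusted p = 0.0103), and DnaJ-1 at 219 to 559 TPM against 91.4 to 411 TPM (1.19 ± 0.24, adjusted p = 0.00181). With 25C day 5 alone as the settled group 3 members of the list were higher and 3 lower (13.6% each, beside 4.45% and 16.1% of all tested genes), and Hsp68 was not called (adjusted p = 0.112).

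High Hsp70 was not limited to the hours at 18C. The sum was already 724 TPM in the 18C day 1 library at ZT00, and it was 103, 305 and 291 TPM in the 25C day 1 libraries at ZT00, ZT06 and ZT12, above the 13 low settled libraries. Against 25C day 1 the sum differed by 1.36 ± 1.77 (adjusted p = 0.632). Within day 1 Hsf was the only list member of 22 called higher, with 3 lower (6.29% and 10.7% of all tested genes were). At ZT00 of 25C day 5 the libraries of replicates 1 and 2 were at 20.03 and 1181 TPM. Of the 14 libraries of 18C days 4-5 in the light 4 were above 200 TPM, as were 2 of the 6 of 18C day 2. The level thus differed between days and single libraries at either temperature, and the part of handling or age in it was not tested.

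**Figure D3:**
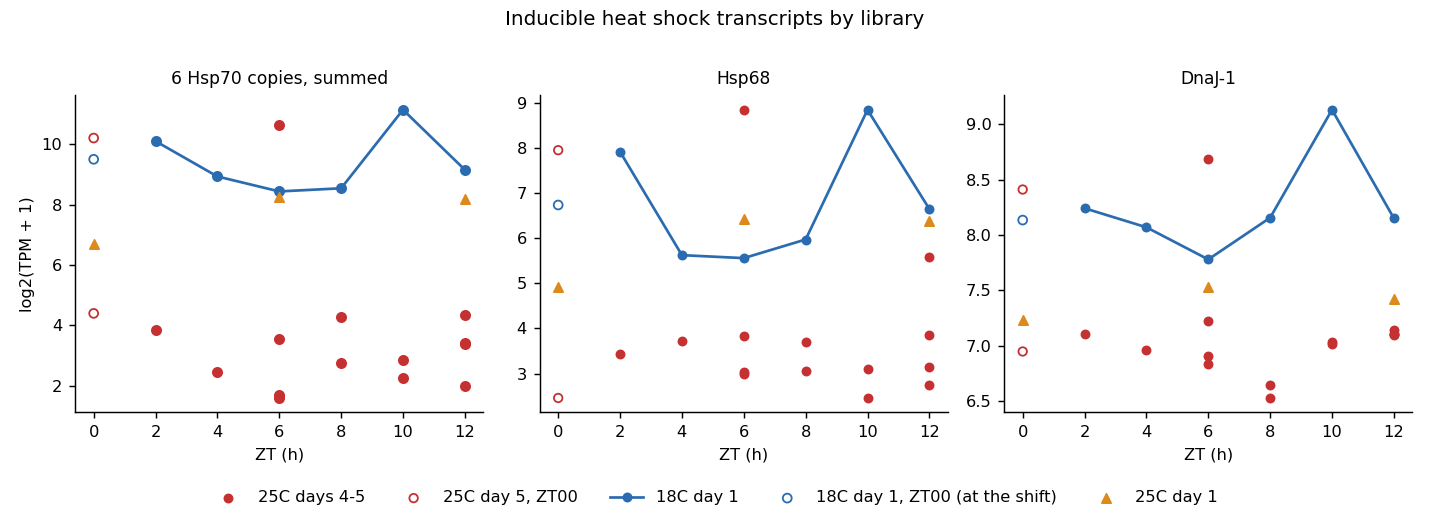
Summed Hsp70 copies, Hsp68 and DnaJ-1 as log2(TPM + 1) by ZT in hours, with 18C day 1 in blue (joined), 25C days 4-5 in red, 25C day 1 as orange triangles, and ZT00 of 18C day 1 and 25C day 5 as open circles. For summed Hsp70 the 18C libraries, at 346 to 2265 TPM, exceed 13 of 14 settled 25C libraries, and the 25C day 1 triangles, at 103 to 305 TPM, lie between the groups. Axes do not start at 0.

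Genes of ribosome assembly were lower in part. Of 23 tested nucleolar ribosome biogenesis genes 12 were lower and none higher (52.2%, beside 27.0% lower of all tested genes), with a median of -0.43 and every member below 0. RpI1, the largest subunit of RNA polymerase I, was at 19.2 TPM at the shift, at 11.9, 8.22, 6.93, 9.62, 8.36 and 10.5 TPM from ZT02 to ZT12, and at 11.3 to 18.6 TPM at 25C days 4-5 (-0.60 ± 0.11, adjusted p = 0.000793). Only its ZT02 library overlapped the settled group. Tif-IA, an initiation factor of the same polymerase, was at 26.3 to 37.8 TPM against 34.7 to 51.96 TPM (-0.43 ± 0.08), and ppan, needed for ribosome assembly, at 9.84 to 13.6 TPM against 12.5 to 22.1 TPM (-0.43 ± 0.11, adjusted p = 0.0514 after rescaling). Against the settled libraries of the same ZT the list had a median of 0.21 at the shift and of -0.15, -0.37, -0.88, -0.07, -0.43 and -0.22 from ZT02 to ZT12, lowest in the ZT06 library. Without that library 4 members (17.4%) were lower, beside 19.7% of all tested genes, and after rescaling 4 (17.4%), beside 17.6%, so in neither case was the list's share above that of all genes. With marker scores as covariates 3 were lower, beside 9.91% of all tested genes. Within day 1 11 members were lower (10.7% of all tested genes were), with a median of -0.69, while the 25C day 1 library at ZT12, whose germline score of 4.28 exceeded those of all 18C day 1 and settled 25C libraries, held a list median 0.52 above the settled level. The part of germline RNA in this was not tested.

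Mitochondrial ribosomal proteins gave 40 lower members and none higher of 73 tested (54.8%, beside 27.0%), with a median of -0.25. mRpS30 was at 32.4 TPM at the shift, at 23.9, 28.2, 23.2, 20.6, 17.3 and 24.6 TPM from ZT02 to ZT12 and at 28.5 to 38.7 TPM at 25C days 4-5, without overlap after the shift (-0.57 ± 0.08, adjusted p = 0.000152). mRpL21 was at 18.5 to 28.9 TPM against 31.4 to 42.9 TPM (-0.57 ± 0.09), also without overlap, and mRpL50 at 14.9 to 21.0 TPM against 20.9 to 30.9 TPM (-0.64 ± 0.08). Members below the settled level of the same ZT numbered 35 at the shift, 49 and 41 at ZT02 and ZT04, and 62 to 69 from ZT06 to ZT12. Over all 7328 tested genes they numbered 4661 at the shift, 5749 and 4202 at ZT02 and ZT04, and 3889 to 4815 from ZT06 to ZT12. The share of the list thus exceeded that of all genes only from ZT06. Within day 1 29 of the 73 were lower, beside 10.7% of all tested genes. Rescaling left 22 lower members (30.1%, beside 17.6% of all tested genes), the marker covariates 23 (31.5%, beside 9.91%), and the settled libraries of day 5 alone 23 (31.5%, beside 16.1%).

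Aminoacyl-tRNA synthetases, which charge tRNAs with amino acids, were lower for 14 of 18 tested (77.8%, beside 27.0%), with a median of -0.31 and no member above 0. LysRS was at 74.2 TPM at the shift, at 48.1, 49.2, 36.6, 42.7, 35.3 and 42.1 TPM from ZT02 to ZT12 and at 53.3 to 69.1 TPM at 25C days 4-5 (-0.52 ± 0.08, adjusted p = 0.000188). GlnRS was at 31.1 to 36.5 TPM against 41.2 to 52.2 TPM (-0.42 ± 0.06), SerRS at 57.4 to 71.6 TPM against 74.5 to 93.0 TPM (-0.37 ± 0.06) and ThrRS at 46.2 to 59.3 TPM against 63.0 to 95.0 TPM (-0.45 ± 0.08). The 18C libraries of all 4 lay below every settled library, and all 4 were lower within day 1. There 9 of the 18 were called lower, beside 10.7% of all tested genes. The main count was 9 without the 18C library at ZT06, 9 without that at ZT12, 8 after rescaling (44.4%, beside 17.6% of all tested genes) and 5 with the marker covariates (27.8%, beside 9.91%).

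Cytosolic ribosomal proteins were mostly not called. Of 86 tested 3 were lower and none higher (3.49% lower, beside 27.0% of all tested genes), with a median of -0.04. The 3 were RpL22 and the related RpL24-like and RpLP0-like (-0.17 ± 0.05, -0.36 ± 0.09 and -0.41 ± 0.10). The yeast counterparts of RpL24-like and RpLP0-like are ribosome assembly factors and not ribosomal proteins. RpL22 was not called after rescaling (adjusted p = 0.532) or without the 18C library at ZT10 or ZT12 (adjusted p = 0.0672 and 0.0923). Within day 1 none was called. The 32 tested subunits of the proteasome, which degrades proteins, had a median of 0.04 with none called in limma. After rescaling 3 were higher (9.38%, beside 15.2% of all tested genes). In the respiratory chain 9 of 64 were lower and 2 higher (14.1% and 3.12%, beside 27.0% and 7.42% of all tested genes), and after rescaling 4 were lower and 7 higher (6.25% and 10.9%, beside 17.6% and 15.2%). The lower ones included ND-75 and ND-51 of complex I (-0.37 ± 0.08 and -0.20 ± 0.05), of which ND-51 was not called after rescaling (adjusted p = 0.262).

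**Figure D4:**
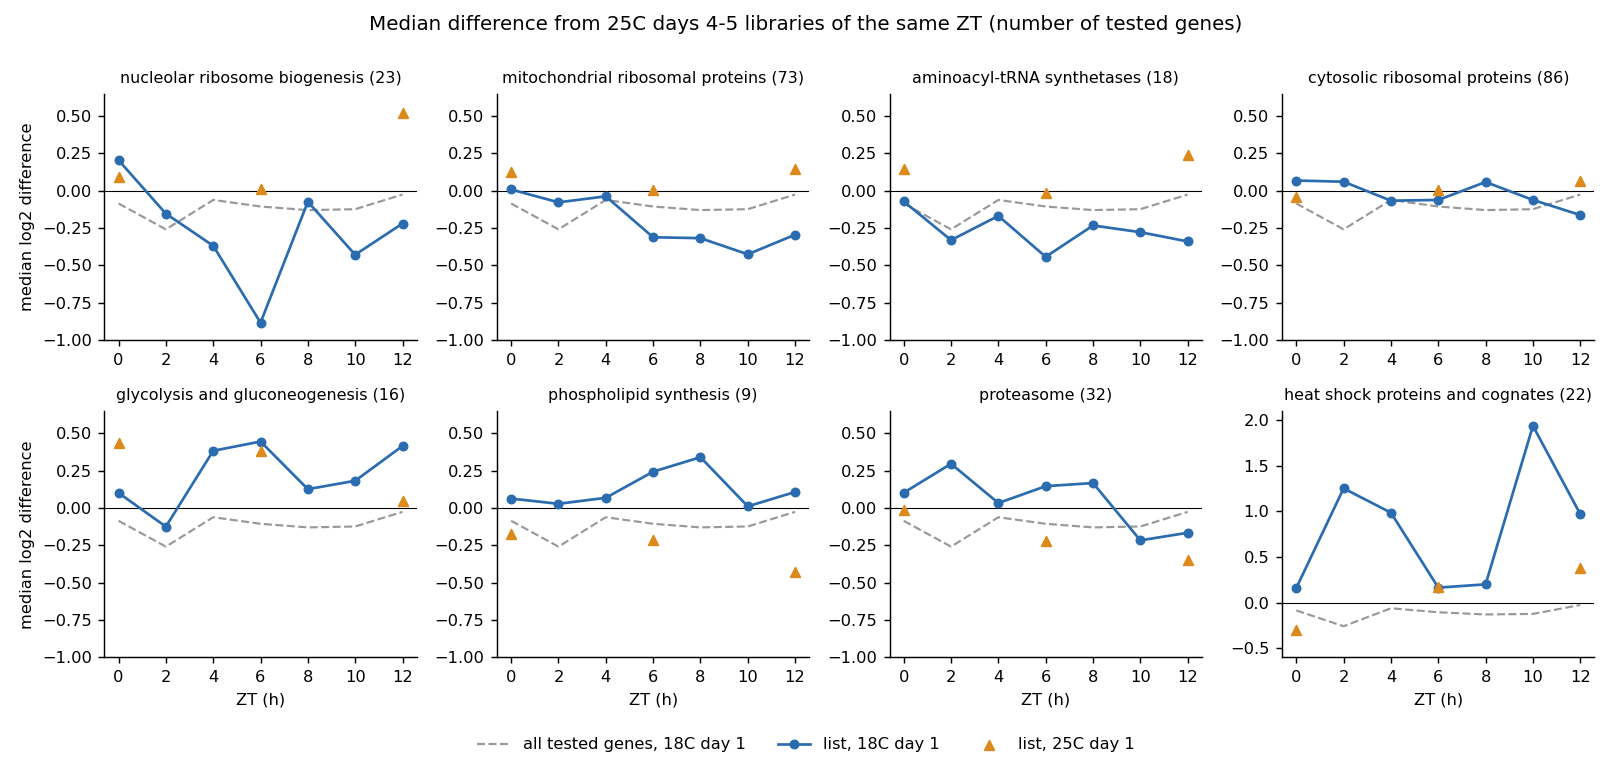
Median log2 difference over the tested members of 8 gene lists, between each library of 18C day 1 (blue line) or 25C day 1 (orange triangles) and the mean of the 25C days 4-5 libraries at the same ZT in hours, with the median of all tested genes at 18C dashed. Nucleolar genes go from 0.21 at ZT00 to -0.88 at ZT06 and mitochondrial ribosomal proteins from 0.01 to -0.43 at ZT10, whereas cytosolic ribosomal proteins stay between -0.16 and 0.07. The heat shock panel has a wider axis.

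Genes of DNA replication, which dividing cells use, were low, and 8 of 23 listed were tested, 3 of them passing the filter only through the 25C group. In the main comparison 3 of the 8 were lower and none higher (37.5% lower, beside 27.0% of all tested genes, and 7.42% of all were higher). After rescaling 3 were lower (37.5%, beside 17.6% of all tested genes), and with the marker covariates 4 (50.0%, beside 9.91%). Without the 18C library at ZT06 or ZT12 2 were lower (25.0%, beside 19.7% and 23.8%). Mcm6, a subunit of the replicative helicase, was at 1.04 to 3.53 TPM at 18C, at 3.12 to 7.91 TPM at 25C days 4-5 and at 7.83 and 15.7 TPM at 25C day 1 (-0.99 ± 0.19, adjusted p = 0.00140). RnrS, the small subunit of ribonucleotide reductase, was also lower (-0.90 ± 0.28), and its call was lost without the 18C library at ZT06 or ZT12 (adjusted p = 0.114 and 0.0677). Within day 1 7 of the 8 were lower, beside 10.7% of all tested genes, and the germline and eggshell scores of the 25C day 1 libraries moved with them, whose part was not tested.

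Glycolytic genes were higher in part. Of 16 tested genes of glycolysis and gluconeogenesis 6 were higher and none lower (37.5%, beside 7.42%), with a median of 0.26. Ldh, which turns pyruvate into lactate, was at 43.7 TPM at the shift, at 146, 101, 84.8, 64.1, 65.7 and 72.6 TPM from ZT02 to ZT12 and at 25.3 to 64.0 TPM at 25C days 4-5, without overlap after the shift (0.91 ± 0.20, adjusted p = 0.00315). Within day 1 its difference was 0.68 ± 0.36 (adjusted p = 0.1997). Hex-A, a hexokinase, was at 147 to 195 TPM against 81.6 to 146 TPM (0.58 ± 0.11, adjusted p = 0.00108). It was the only member of 16 called within day 1 (0.74 ± 0.19), where 6.29% of all tested genes were higher. Gapdh1, Pgk, Pglym78 and Eno were higher by 0.29 to 0.37. The count was 12 without the 18C library at ZT02, without the 25C library at ZT02 or after rescaling, 2 without the 18C library at ZT06, and 0 with the marker covariates. After rescaling this was 75.0%, beside 15.2% of all tested genes, and without the 18C library at ZT06 12.5%, beside 5.23%.

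Phospholipid synthesis gave 4 higher members of 9 tested and none lower (44.4%, beside 7.42%). They were Cds, which makes CDP-diacylglycerol, the ethanolamine kinase eas, and Pect and Pcyt1, which make the CDP-linked precursors of phosphatidylethanolamine and phosphatidylcholine. Pect (0.42 ± 0.15, adjusted p = 0.0477) lost its call without any of 15 single libraries (adjusted p = 0.0512 to 0.232). Cds was at 59.0 TPM at the shift, at 82.2, 81.0, 96.9, 87.7, 92.5 and 83.3 TPM from ZT02 to ZT12 and at 48.6 to 85.6 TPM at 25C days 4-5, where 1 library reached the 18C range (0.43 ± 0.08, adjusted p = 0.00143). Within day 1 5 members were higher (6.29% of all tested genes were), with a median of 0.60, and Cds was higher by 0.85 ± 0.14 (adjusted p = 0.00213). The main count was 2 when the 18C library at ZT06 or ZT08, or the 25C replicate 1 library at ZT08 of day 4, ZT08 of day 5 or ZT10 of day 5, was left out, and 0 with the marker covariates.

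Genes of lipid and sugar storage moved on either side. Of 17 tested genes of fatty acid and triglyceride synthesis 4 were higher (23.5%, beside 7.42% of all tested genes), among them mino, a glycerol-3-phosphate acyltransferase (0.53 ± 0.10), and Zw, glucose-6-phosphate dehydrogenase (0.47 ± 0.10), although 1666 of 3928 exonic bases of mino and 411 of 2512 of Zw lie opposite other transcripts. Another 3 were lower (17.6%, beside 27.0%), among them FASN1, fatty acid synthase, at 575 to 1064 TPM against 892 to 1708 TPM (-0.48 ± 0.14, adjusted p = 0.0154), and after rescaling none was lower (FASN1 adjusted p = 0.0609). AGBE, the glycogen branching enzyme, was at 145 to 450 TPM against 79.3 to 243 TPM (0.85 ± 0.25, adjusted p = 0.0162) and was the only one called of 10 trehalose and glycogen genes. The main call of AGBE was lost without the 18C library at ZT06 or ZT12 (adjusted p = 0.0869 and 0.057). The count of higher genes of fatty acid and triglyceride synthesis fell to 2 without the 18C library at ZT06, ZT08 or ZT10, and with the marker covariates none was called in either direction. Within day 1 2 of these 17 genes were higher and none lower (6.29% and 10.7% of all tested genes were).

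Signalling genes of growth also divided. InR, the insulin receptor, was at 5.11 to 10.2 TPM at 18C and at 3.05 to 7.40 TPM at 25C days 4-5 (0.61 ± 0.16, adjusted p = 0.00811). Gbp1, a growth-blocking peptide that fat body secretes, was at 173 TPM at the shift, at 250, 264, 246, 300.4, 323 and 244 TPM afterwards and at 123 to 215 TPM at 25C days 4-5, without overlap (0.72 ± 0.13, adjusted p = 0.000702). ImpL2, a secreted antagonist that binds insulin-like peptides, was at 522, 245, 240, 464, 585 and 204 TPM at 18C, at 332 TPM at the shift, at 125 to 333 TPM at 25C days 4-5 and at 123 and 94.2 TPM at ZT06 and ZT12 of 25C day 1. It was higher within day 1 (1.68 ± 0.41, adjusted p = 0.0137) and in the main comparison (0.70 ± 0.24, adjusted p = 0.0340), where the call was lost without the 18C library at ZT02, ZT04, ZT08 or ZT10 (adjusted p = 0.0581 to 0.139) and without the 25C replicate 1 libraries at ZT08 and ZT10 of day 4 and at ZT02, ZT04 and ZT10 of day 5 (adjusted p = 0.0529 to 0.0629). It shares 1651 of 2667 exonic bases with CG46460, so its reads are uncertain. In the insulin and TOR list 4 of 23 were higher and 6 lower, the lower being Tor, raptor, rictor and Rheb of the TOR pathway and gig and Tsc1, which inhibit it. The share lower (26.1%) was near that of all tested genes (27.0%), and 17.4% were higher, beside 7.42%, with InR passing the filter on low values only through the 18C group. After rescaling 7 were higher and 4 lower (30.4% and 17.4%, beside 15.2% and 17.6% of all tested genes). The marker covariates left 1 higher (4.35%, beside 2.31%) and none lower. Within day 1 6 of the 23 were higher and 1 lower (6.29% and 10.7% of all tested genes were), with a median of 0.27. In the 25C day 1 libraries at ZT00, ZT06 and ZT12, 23, 22 and 16 of the 23 lay below the settled level. Over all 7328 tested genes these counts were 4960, 4888 and 4247. Atg1, the kinase that starts autophagy, was at 12.5 to 21.4 TPM against 17.9 to 40.0 TPM (-0.65 ± 0.12), and 6 of 19 autophagy genes were lower and 1 higher (31.6% and 5.26%, near the 27.0% and 7.42% of all tested genes). The higher member, Atg10, passed the filter on low values only through the 18C group. After rescaling 3 were lower and 3 higher (15.8% each, near the 17.6% and 15.2% of all tested genes). With the marker covariates 1 was lower (5.26%, beside 9.91%). Within day 1 2 of the 19 were higher and 1 lower (6.29% and 10.7% of all tested genes were), with a median of 0.08. Atg1 was at 27.2 and 15.5 TPM at ZT06 and ZT12 of 25C day 1. At the same hours of 18C day 1 it was at 18.4 and 15.3 TPM.

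Of 19 tested antioxidant and glutathione genes 3 were higher (Prx2540-1, Prx2540-2 and PHGPx) and 4 lower (Cat, Jafrac1, Gclc and MsrA), 15.8% and 21.1% beside 7.42% and 27.0% of all tested genes. After rescaling 3 were higher and 2 lower (15.8% and 10.5%, beside 15.2% and 17.6% of all tested genes). With the marker covariates 2 were higher (10.5%, beside 2.31%) and none lower. Irp-1A, an iron regulatory protein, was at 18.7 to 24.03 TPM against 29.4 to 36.3 TPM, without overlap (-0.59 ± 0.06, adjusted p = 1.76e-05), and lower within day 1 as well. Prx2540-1, a peroxiredoxin with nearly identical copies, was at 114 to 228 TPM against 41.9 to 105 TPM (0.99 ± 0.15), with 93.5 and 80.0 TPM at 25C day 1 and an adjusted p of 0.114 there. CG33470, an immune-induced peptide, was at 1554 TPM at the shift, at 5338, 2449, 2940, 2686, 2191 and 3823 TPM afterwards and at 1276 to 2378 TPM at 25C days 4-5 (0.87 ± 0.14, adjusted p = 0.000348), and higher within day 1 (1.13 ± 0.23). Of 13 tested antimicrobial peptides 2 were called, CG33470 and Def (15.4%, beside 7.42%). With replicate number as a block 7 were called, where 2955 of all 7328 tested genes were, 558 of them higher. The list median against the settled libraries of the same ZT was -1.76 at the shift. From ZT02 to ZT12 it was 2.26, 3.36, 0.38, 0.001, 2.72 and 0.35, so it varied widely between single libraries. The call of Def (1.37 ± 0.50, adjusted p = 0.0460) was lost without the 18C library at ZT04, ZT06, ZT10 or ZT12 (adjusted p = 0.0552 to 0.206), without the 25C replicate 1 library at ZT06 or ZT12 of day 4 or ZT04 or ZT10 of day 5, or without the 25C replicate 2 library at ZT12 of day 4 (adjusted p = 0.0568 to 0.136). CG33470 shares 272 of 1159 exonic bases with CG30059 on the opposite strand.

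Secretory and RNA-processing genes held calls in both directions, with 5 higher and 5 lower of 22 endoplasmic reticulum genes, and 5 higher and 6 lower of 22 splicing regulators. The shares higher were 22.7% in each list, beside 7.42% of all tested genes, and the shares lower, 22.7% and 27.3%, were near or under the 27.0% of all. Rescaling gave 7 higher and 4 lower (31.8% and 18.2%) and 9 higher and 5 lower (40.9% and 22.7%), beside 15.2% and 17.6% of all tested genes. With the marker covariates 2 endoplasmic reticulum genes were higher (9.09%) and none lower, and 1 splicing regulator was higher (4.55%) and 3 lower (13.6%). Over all tested genes these shares were 2.31% higher and 9.91% lower. Sec61alpha, the channel through which proteins enter the endoplasmic reticulum, was at 325 to 480 TPM against 233 to 361 TPM (0.45 ± 0.08). Calr, the calcium-binding chaperone calreticulin of the same compartment, was at 324 to 387 TPM against 414 to 564 TPM, without overlap (-0.45 ± 0.07, adjusted p = 0.000397). Hrb98DE, a nuclear RNA-binding protein, was at 59.6 to 77.0 TPM after the shift, at 121 TPM at the shift and at 88.8 to 131 TPM at 25C days 4-5 (-0.60 ± 0.09, adjusted p = 0.000172). Gcn2, a kinase that senses uncharged tRNA, was at 5.40 to 7.37 TPM against 9.07 to 15.3 TPM (-0.73 ± 0.10), though it was at 8.51 TPM at the shift already. Among noncoding transcripts lncRNA:CR43417 was at 17.1 to 25.6 TPM against 32.9 to 56.1 TPM, without overlap (-1.02 ± 0.13, adjusted p = 9.44e-05). The antisense asRNA:CR46479 was at 11.01 to 22.2 TPM against 1.59 to 9.56 TPM (1.57 ± 0.26), with 485 of its 613 bases opposite other transcripts.

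The clock genes were called in part. The activator Clk was at 7.83, 7.49, 9.47, 6.25, 5.68 and 5.69 TPM from ZT02 to ZT12 of 18C day 1, against 18.8 TPM at ZT02, 14.6 TPM at ZT04, 10.4 to 16.5 TPM at ZT06 and 7.71 to 9.64 TPM at ZT12 of the settled 25C day. It lay below the settled libraries at each hour (-0.87 ± 0.12, adjusted p = 0.000142), but at 25C day 1 it was at 11.3 and 5.93 TPM at ZT06 and ZT12, with a difference of -0.42 ± 0.20 within day 1 (adjusted p = 0.161). The repressor per was at 6.43, 9.23, 11.45, 12.6, 15.8 and 16.2 TPM, rising toward dusk, against 4.28 TPM at ZT02 and 7.55 to 11.4 TPM at ZT12 (0.74 ± 0.09, adjusted p = 8.05e-05). It was at 4.62 and 6.30 TPM at 25C day 1 and higher within day 1 by 1.17 ± 0.16 (adjusted p = 0.000635). Its partner tim was at 39.2, 52.8, 51.7, 64.5, 87.4 and 79.7 TPM against 19.03 TPM at ZT04 and 97.8 to 128 TPM at ZT12, so it was above the settled level at ZT04 to ZT08 and below it at ZT12 (0.38 ± 0.20, adjusted p = 0.158). Without the 18C library at ZT12 tim was called higher (adjusted p = 0.0304), and within day 1 it was higher by 1.04 ± 0.35 (adjusted p = 0.0491). Among the others vri was higher (0.40 ± 0.12) and cyc and the blue-light receptor cry lower (-0.23 ± 0.07 and -0.31 ± 0.07), of which vri was not called without the library of either group at ZT04 or the 18C library at ZT06 (adjusted p = 0.0506 and 0.0754). The call of cyc was lost without the library of either group at ZT02 or the 18C library at ZT06 or ZT10 (adjusted p = 0.0669, 0.0884 and 0.0536), and after rescaling (adjusted p = 0.186). Pdp1 and the repressor cwo were not called (0.37 ± 0.14 and 0.29 ± 0.17, adjusted p = 0.0559 and 0.202), and both were called higher without the library of either group at ZT02 (adjusted p = 0.0414 and 0.00526). For Pdp1 this was also so after rescaling (adjusted p = 0.0149) and without the 25C replicate 1 library at ZT12 of day 4 or ZT10 of day 5 or the replicate 2 library at ZT06 of day 5 (adjusted p = 0.0494, 0.0204 and 0.048). Within day 1 3 of the 8 clock genes were higher and none, cyc and cry included, was lower (6.29% and 10.7% of all tested genes were). In the 25C day 1 libraries at ZT06 and ZT12, 7 of the 8 lay below the settled level. Their medians there were -0.237 and -0.463, beside -0.105 and -0.067 over all tested genes.

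**Figure D5:**
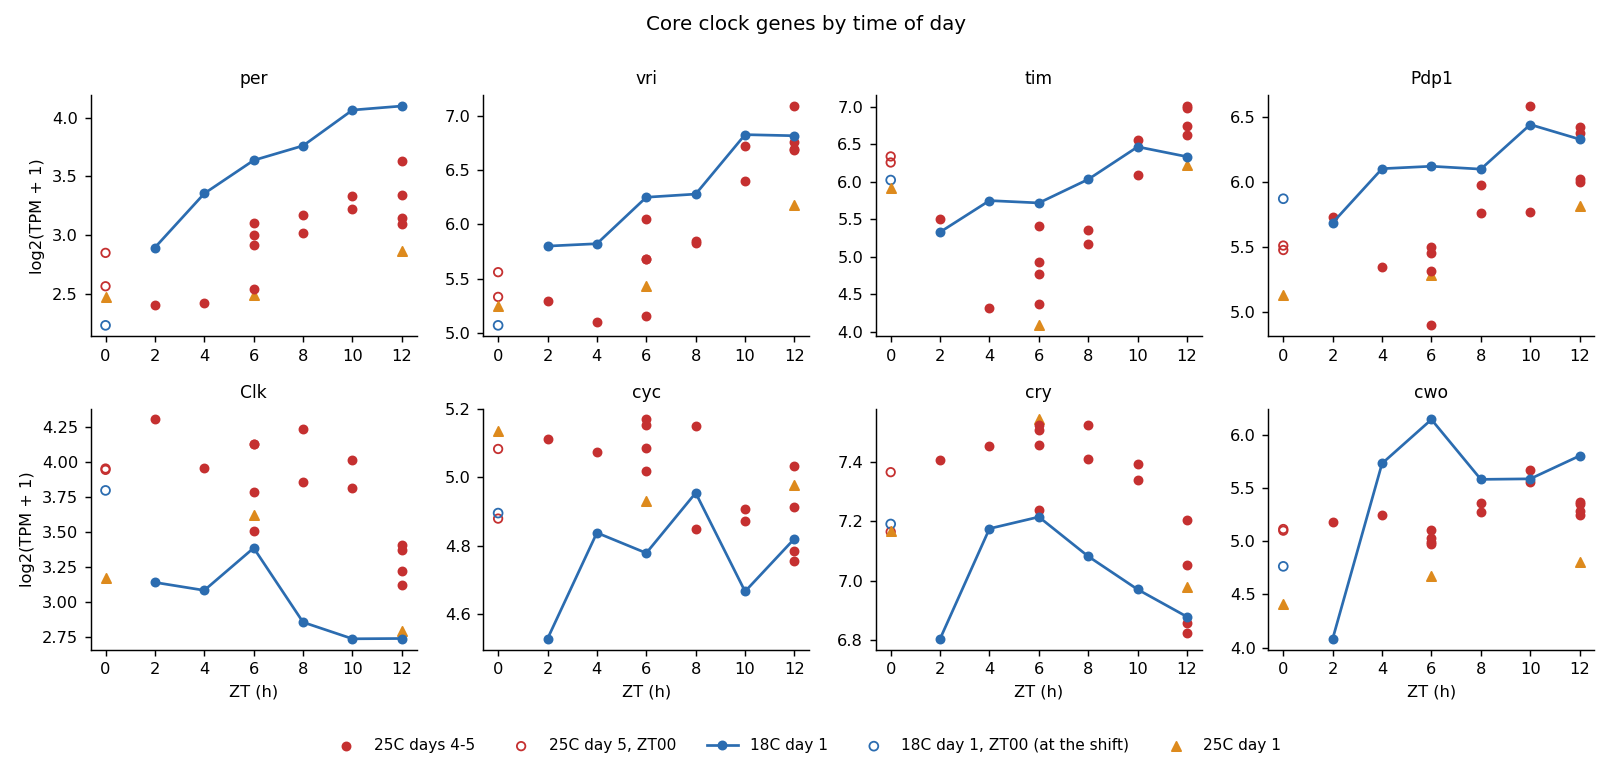
Levels of 8 core clock genes as log2(TPM + 1) against ZT in hours, with 18C day 1 as joined blue points, 25C days 4-5 as red points, 25C day 1 as orange triangles, and the ZT00 libraries of 18C day 1 and 25C day 5 as open circles. The blue line of per runs above the red points and that of Clk below them, while tim at 18C goes from 39.2 to 79.7 TPM and crosses the steeper settled profile. Axes do not start at 0.

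Whether differences grew or shrank over the 12 h was tested as a linear change with ZT, and no gene passed (limma, 0%, with 474 of 7328 at an unadjusted p under 0.05). The smallest p was that of CG34174, at 4.49, 7.20, 4.68, 3.63, 1.54 and 1.37 TPM from ZT02 to ZT12 of 18C day 1, whose difference changed by -0.20 ± 0.03 per h (adjusted p = 0.104). It was called after rescaling (adjusted p = 0.0143). Glut4EF, a transcription factor, was at 26.2, 32.3, 30.1, 38.2, 89.6 and 82.0 TPM (0.26 ± 0.05 per h, adjusted p = 0.294), and was called without the 18C library at ZT04 (adjusted p = 0.0495). Next was mri, at 38.2 to 87.8 TPM (0.11 ± 0.02 per h, adjusted p = 0.486).

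Set against the settled days at 18C, the acute day had 312 genes higher and 2083 lower (32.7% called, 4.26% higher and 28.4% lower), with a median of -0.18 over all tested genes, and after rescaling 718 were higher and 811 lower. Age and time at 18C cannot be told apart here. Of the cytosolic ribosomal proteins 67 of 86 were higher on the acute day, with a median of 0.23. RpL5 was at 3132 to 3534 TPM, above all libraries of 18C days 4-5 at 2150 to 2910 TPM (0.43 ± 0.06, adjusted p = 1.56e-05), and at 3302 to 4000.2 TPM at 25C days 4-5. The initiation factor subunit eIF3h was at 280 to 321 TPM against 168 to 231 TPM (0.56 ± 0.06), and the P450 enzyme Cyp4e1 at 38.2 to 46.0 TPM against 12.8 to 23.2 TPM (1.23 ± 0.12, adjusted p = 3.08e-07), within its range of 26.5 to 53.3 TPM at 25C. Among the lower genes mRpS25 was at 15.9 to 26.2 TPM against 28.2 to 46.9 TPM (-0.79 ± 0.09), and Lrpprc2 at 8.59 to 13.6 TPM against 14.2 to 20.8 TPM (-0.77 ± 0.09). Mitochondrial ribosomal proteins were lower for 55 of 73 and synthetases for 12 of 18. Ost48, a subunit of the enzyme that adds glycans in the endoplasmic reticulum, was at 79.8 to 90.6 TPM on the acute day and at 99.0 to 137 TPM on the settled days (-0.58 ± 0.06), while against 25C days 4-5 it differed by -0.11 ± 0.07 (adjusted p = 0.264).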

How the data were processed

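TPM values per gene were deposited by the authors for all 73 libraries, made, as the study's methods and labels give it, from poly(A) RNA in non-stranded paired-end libraries aligned with STAR 2.7.10a and quantified with RSEM on BDGP6. Levels were tested as log2(TPM + 1) with limma 3.58.1 in R 4.3.3, with ZT as a factor, over genes with a median above 5 TPM in either group, and p-values were adjusted over all 7328 genes. Rescaling shifted each library by its median ratio. The genes named were in each direction the 12 called genes with the largest difference, a single sign at all hours and a mean of at least 5 TPM, up to 4 called members per list by p-value, the 8 clock genes, and 5 per direction (3 where none passed) from the other tests. Members and lists were chosen with earlier results of these data known. On simulated data for the 7328 genes, the main fit recovered 64% and 87% of differences of 0.5 and 1, with 6 false calls of 157. The simulation changed 100 genes by each amount, drew independent spread for each library, and held no ZT effect, shared cultures or median shift. Its false calls therefore do not measure those in the real data, where 34.4% of genes were called. Of the 23932 IDs, 23851 were found in the Ensembl annotation that gave the coordinates. The methods describe removal of duplicate reads before quantification, which lowers abundant genes relative to the rest, and whether the deposited TPM include that step is not stated with the table. No table of counts was used here, so the depth of each library is not known beyond the nominal read number in the methods.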

Additional observations from a re-analysis of the deposited data

Results flagged for a closer look

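Among 156 named genes, 5 had 1 of the 6 differences between an 18C day 1 library and the settled 25C libraries of the same ZT that stood apart from the other 5, where chance flags about 1 in 20 groups. Sgp was 4.41 higher (log2) at ZT10 and 0.53 to 1.97 higher at the other hours. Hex-A was 1.11 higher at ZT04 and 0.43 to 0.61 higher otherwise. PGRP-LF was 1.6 higher at ZT04 and 0.58 to 0.85 higher otherwise. For mRpL37 the difference was 0 at ZT02 and -0.67 to -0.5 at the other hours. For ThrRS it was -0.82 at ZT06 and -0.43 to -0.24 otherwise.

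The acute and the settled days at 18C differed for 2395 genes (limma, adjusted p under 0.05).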

How the results depend on the processing

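Of 158 results for named genes, 5185 values were computed under other settings. Direction and side of the threshold were kept in 4726, 444 lost the call, 15 gained it and none changed direction, and 63 results kept both under every setting. Against the settled 25C day, the 90 genes with a difference of at least 1 became 46 with a pseudocount of 5. With a median above 20 TPM there were 1257 calls among 4347 tested genes, 871 of them lower and 41 of at least 1. Of those calls 30.7% were higher, beside 21.6% in the main setting, and the median over tested genes was -0.065, beside -0.113. Rescaling gave 1115 higher and 1291 lower, marker scores 895 (169 and 726), 25C day 5 alone 1506 (326 and 1180), and an adjusted p under 0.01 1453 (261 and 1192). The 18C libraries at ZT06, ZT10 and ZT12 alone, chosen after seeing the data, gave 1605, with 1218 lower. Leaving out 1 library gave 1828 to 2901 calls, 361 to 628 higher and 1445 to 2273 lower. Within day 1, rescaling gave 712 higher, marker scores 50 (36 and 14), and only the 4 libraries 0 (0 higher and 0 lower). Leaving out 1 of the 25C day 1 libraries gave 37 to 757 calls, 19 to 171 higher and 18 to 586 lower. The change over 12 h gave 1 call, lower, after rescaling, and 0 to 1 without single libraries (0 to 1 higher, 0 to 1 lower). Against settled 18C, rescaling gave 1529 calls, 718 higher and 811 lower. The causes were not tested.

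No paired analysis was possible because replicate 2 occurs only at 25C days 4-5 in the main comparison. With replicate number as a block there were 2955 calls in the main comparison, 833 higher within day 1 and 1 call, lower, for the change over 12 h.

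Temperature, age and period cannot be told apart, each hour had 1 library at 18C, and libraries may share cultures. TPM are relative, and the direction of small differences depends on scaling. The TPM give no read depth per library.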
